A study of Mus musculus with 6 samples.

Results

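The lining of the blood and lymph vessels of the lung was followed through 36 genes that endothelial cells use, chosen by symbol from a list of vascular receptors, junction proteins, transcription factors and markers of vessel types. All 36 were found among the 47069 genes of the count table, and all 36 passed the filter on low counts that left 17037 genes to test. Lungs of 3 Zpbp2 knock-out mice (KO4 to KO6) and 3 wild type mice (WT4 to WT6) were sequenced as bulk mRNA, with 1 library per mouse. KO mice carry a deletion of the first exons of Zpbp2 in a C57BL/6J background in every cell, and WT mice are C57BL/6J mice bred in the same colony. All mice were adults kept in a light/dark cycle, and all 6 lungs were taken at ZT10, that is 10 h after lights on. The labels give neither the sex nor the litter of single mice.

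The capillary bed of the lung holds the largest endothelial surface of the body. Its general capillary cells regulate vessel tone and renew the capillary lining after injury, and its aerocytes are wide, thin cells specialised for gas exchange. VEGF from alveolar epithelium, angiopoietins, and BMP9 and BMP10 from the blood maintain these cells through receptors on the list. In bulk lung, fewer endothelial cells and less RNA per endothelial cell cannot be told apart.

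Between 19981428 and 46796908 reads per mouse fell on genes, and 3 counts, the smallest number taken as detected, equal 0.0629 to 0.148 CPM, the library-scaled count used throughout. RNA of Zpbp2 itself gave 1, 2 and 2 counts in the 3 WT mice and 0 in each KO mouse, at or below that floor in all 6 mice, so the deletion could not be checked on its own RNA at this depth. Other cell types moved with the genotype. The 5 general leukocyte markers were all higher by the Benjamini-Hochberg adjusted quasi-likelihood test of edgeR, with summed levels of 414 to 484.5 CPM in WT and 693 to 1202 CPM in KO mice. Markers of monocytes were higher in 8 of 10 cases by the same test, and those of neutrophils in 3 of 6, while none of the 10 B cell markers passed although all 10 were higher in each KO than in each WT mouse. The 5 red cell genes were all lower, from 2126 to 2277 CPM in WT to 1035 to 1411 CPM in KO mice. The sums of the 7 pericyte markers overlapped between genotypes (621 to 738 CPM and 666 to 761 CPM). The 7 smooth muscle markers all had log2 fold changes below 0, with a median of -0.54, none called and 3 lower in every KO than in every WT mouse, although their sums overlapped (587.5 to 887 CPM and 458 to 601 CPM). Epithelial and fibroblast lists were low as well, with median log2 fold changes of -0.18 for type 1 alveolar cells (sums of 7930 to 8208 CPM in WT and 6910 to 7708 CPM in KO mice), -0.14 for type 2 alveolar cells, -0.36 for club cells, -0.25 for ciliated cells and -0.18 for fibroblasts. The part of these shifts in the endothelial values was not tested.

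Endothelial genes were, as a list, slightly lower in KO lung, as were the lists of alveolar, airway and fibroblast markers, and 2 of the 36 changed. Cldn5 and Nos3 fell, none rose, and none reached a log2 fold change of 1.5 in either direction. The share called, 5.56%, stands beside 6.39% of all genes tested, 2.67% called lower and 3.72% called higher. With the fold threshold added, 0.64% of all genes remained and 0 of the 36. The median log2 fold change of the list was -0.14, against 0.00 over all genes tested, with 26 genes below 0 and 10 above it. Of all genes tested, 49.4% lay below 0. Fold changes of the 36 ran from -0.78 for Lyve1 to 0.28 for Prox1. In 10 of the 36 genes (27.8%) the 3 KO values lay below all 3 WT values, where 15.6% of all genes did so. In 0 of 36 did they lie above, where 17.0% of all genes did. An unadjusted p under 0.05 was reached by 11 of the 36 (30.6%) and by 25.5% of all genes in the same edgeR test. DESeq2 called 9 of the 36, all lower, where it called 11.9% of the genes it tested in either direction. Its additional calls were Icam2, Esam, Ramp2, Sox7, Egfl7, Tmem100 and Lyve1. The 36 genes were chosen with earlier results of these data known, so no conclusion is drawn from these shares.

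The mice of the KO group differed among themselves. Relative to the WT mean, the median of the 36 genes on the log2 scale was 0.06, 0.01 and -0.05 in WT4, WT5 and WT6, and -0.03, -0.21 and -0.12 in KO4, KO5 and KO6. KO5 was the lowest of all 6 mice in 17 of the genes, where it was the lowest in 22.3% of all genes tested. KO4 and WT4 were each the highest in 11, where they were the highest in 15.2% and 12.3% of all genes. The summed level of 23 genes used along the whole vascular tree was 11688, 11361 and 10966 CPM in the WT mice and 11771, 9945 and 10493 CPM in KO4, KO5 and KO6. Thus KO4 lay above all WT mice in this sum and the other KO mice lay below them. KO5 also had the highest leukocyte sum, 1202 CPM, where KO4 had 693 CPM and KO6 had 876 CPM. Without KO4, edgeR's test called 6 of the 36 lower, namely Nos3, Lyve1, Tmem100, Ramp2, Egfl7 and Sox18 (7.3% of all genes were called in that fit in either direction), and without any one of the other 5 mice it called 0.

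**Figure D1:**
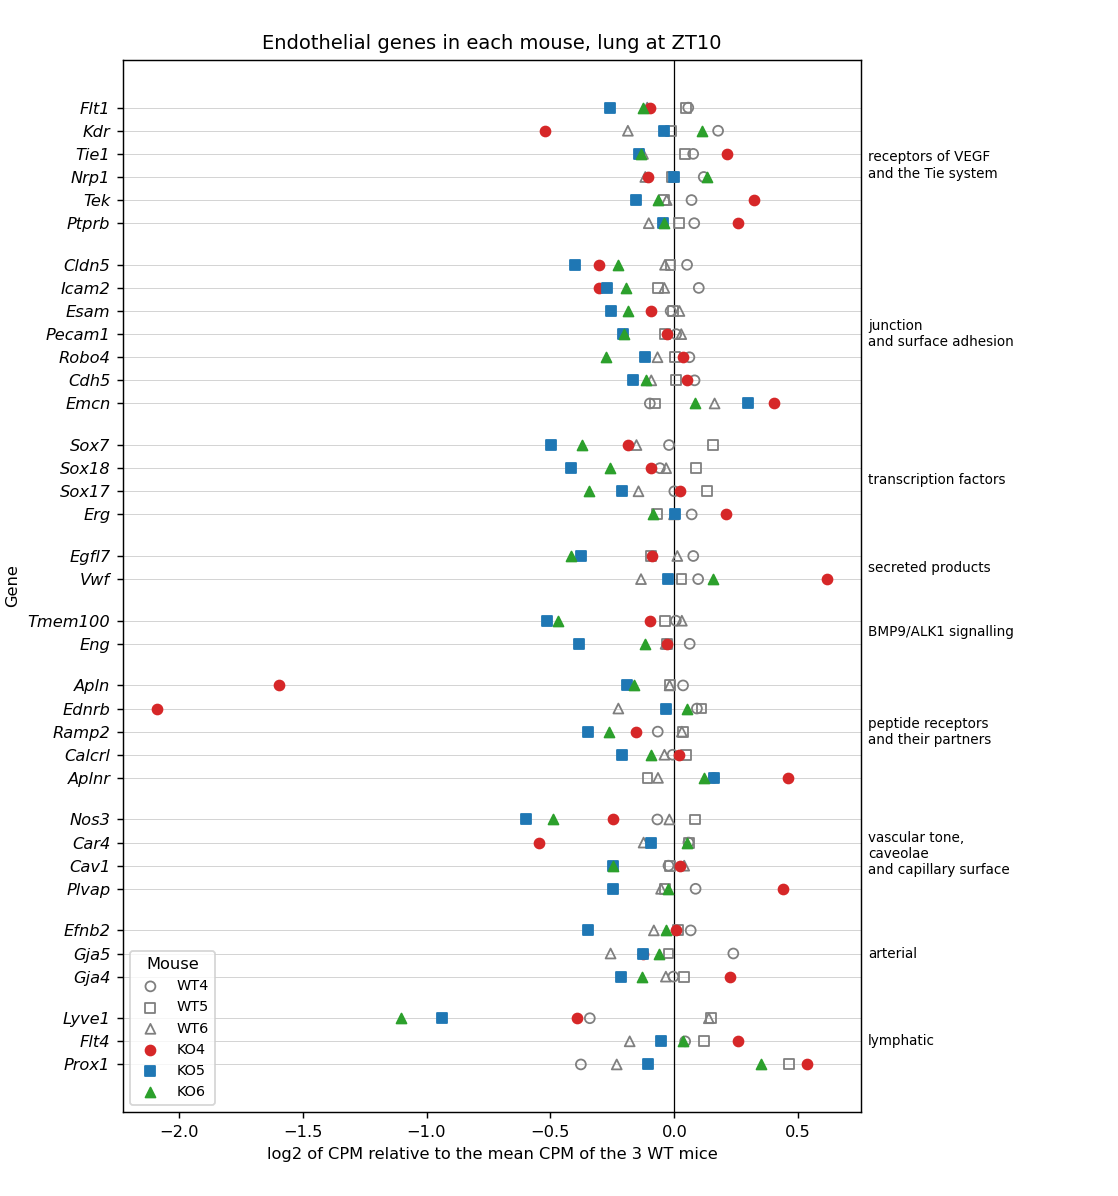
Each row is 1 endothelial gene and each point 1 mouse, placed by the log2 of its CPM relative to the mean CPM of the 3 WT mice (open symbols WT, filled symbols KO), with genes grouped by role. Most genes stay within 0.5 of the WT mean, Lyve1 lies far to the left in KO5 and KO6, and Ednrb and Apln lie far to the left in KO4 alone.

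Levels were compared between genes per kilobase of exon (CPM per kb). In WT lung the highest were Cav1, the coat protein of caveolae, at 394 ± 9.54 (SD, n = 3), Tmem100, a membrane protein induced by BMP9, at 341 ± 8.06, and Calcrl, the receptor of adrenomedullin and CGRP, at 308 ± 9.18 CPM per kb. The claudin Cldn5 followed at 261 ± 8.43 CPM per kb. The lowest were the lymphatic regulator Prox1, at 0.679 ± 0.225, and the arterial connexin gene Gja5, at 5.64 ± 0.969 CPM per kb. For 18 of the 35 neighbours in this order the ranges of the 3 WT mice overlapped, as between Cdh5 (211 ± 12.8) and Plvap (205 ± 10.9) or between Nos3 (9.93 ± 0.544) and Aplnr (8.71 ± 0.889).

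Of the 7 genes for junction and surface proteins, Cldn5 fell and the other 6 did not pass the test. Cldn5 (ENSMUSG00000041378, GRCm38 chromosome 16 from 18776847 to 18778262, plus strand) encodes the main claudin of endothelial tight junctions. It measured 383, 366 and 360.2 CPM in WT4, WT5 and WT6 and 299, 280.1 and 316 CPM in KO4, KO5 and KO6. All KO mice lay below all WT mice. The log2 fold change was -0.31 (standard error 0.062, adjusted p = 0.0362 by the Benjamini-Hochberg adjusted quasi-likelihood test of edgeR), a mean fall from 370 ± 11.9 to 298 ± 17.8 CPM (SD, n = 3). The call was lost whichever mouse was left out: its adjusted p in edgeR was 0.114, 0.138 and 0.0971 without WT4, WT5 and WT6, and 0.0528, 0.0584 and 0.0695 without KO4, KO5 and KO6, while its log2 fold change stayed between -0.35 and -0.27. Its promoter is shown because Cldn5 is a called gene with a RefSeq entry (GRCm38.p6, chr16:18776597-18776896, plus strand, from 250 bases before to 50 after the gene's start). Capitals mark the reverse complement GGGTG of the KLF motif CACCC, which is present on either strand in 57.5% of 32851 mouse promoters of this length. Neither AGGAAG, the core of ETS sites (in 35.4% of promoters), nor AACAAT, bound by SOX factors (in 10.7%), is in this window.
Cldn5: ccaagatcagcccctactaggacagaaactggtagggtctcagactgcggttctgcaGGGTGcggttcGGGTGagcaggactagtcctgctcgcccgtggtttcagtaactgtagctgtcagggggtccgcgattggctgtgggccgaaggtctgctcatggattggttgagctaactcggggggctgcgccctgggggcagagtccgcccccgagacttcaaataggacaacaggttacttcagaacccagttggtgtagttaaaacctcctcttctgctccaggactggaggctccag

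Other junction genes had smaller differences. Icam2, an adhesion molecule of resting endothelium, measured 174, 155 and 158 CPM in the WT mice and 132, 135 and 142 CPM in the KO mice, with a log2 difference of -0.26 (standard error 0.0614, adjusted p = 0.0546 by the Benjamini-Hochberg adjusted quasi-likelihood test of edgeR). Esam, an adhesion molecule of tight junctions, measured 220.3, 222 and 226 CPM in the WT mice and 209, 186 and 195 CPM in the KO mice (log2 fold change -0.18, adjusted p = 0.107 in edgeR). Both lay lower in every KO mouse than in any WT mouse without passing the threshold. Pecam1 and Cdh5, which encode PECAM-1 and VE-cadherin, had log2 fold changes of -0.14 and -0.07 with overlapping groups. Both are among the genes used along the whole vascular tree, and the part of other cell types in their values was not tested. Pecam1 ranged from 872 to 912 CPM in WT and from 774 to 876 CPM in KO mice, and Cdh5 from 831 to 938 CPM and from 790.0 to 918 CPM. Robo4, a receptor that stabilises the vessel wall, had -0.11, from 85.5 ± 3.81 to 79.0 ± 8.6 CPM (SD, n = 3). Emcn, which encodes the sialomucin endomucin, had 0.27 (adjusted p = 0.159 in edgeR), from 56.8 ± 5.88 to 68.4 ± 7.61 CPM (SD, n = 3).

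None of the 6 receptors of the VEGF and Tie systems passed the test, and in none did the groups separate. Flt1, the decoy receptor that limits VEGF signalling, ranged from 366 to 410.5 CPM in WT and from 330.2 to 369 CPM in KO mice, with a log2 fold change of -0.16 (adjusted p = 0.215 by the Benjamini-Hochberg adjusted quasi-likelihood test of edgeR). Kdr, the main signalling receptor of VEGF, measured 484, 425 and 376 CPM in WT4, WT5 and WT6 and 299, 416.5 and 462 CPM in KO4, KO5 and KO6, so that KO4 lay below the other 5 mice. Its co-receptor Nrp1 had a log2 fold change of 0.01, with means of 503 ± 41.3 and 507 ± 42.2 CPM (SD, n = 3). The angiopoietin receptor Tek had 0.05, its partner Tie1 had -0.01, and Ptprb, the phosphatase that acts on Tek, had 0.06. In all 3 the highest value was that of KO4, at 530.5 CPM for Tek, 389 CPM for Tie1 and 1419 CPM for Ptprb, and the other 5 mice ranged from 381 to 445, from 304.5 to 354 and from 1106 to 1256 CPM. Among the genes that act with these receptors, 0 of 6 VEGF ligands and co-receptor genes and 0 of 3 angiopoietin genes were called. The co-receptor gene Nrp2 was higher in every KO than in every WT mouse, from 86.85 ± 7.09 to 105.6 ± 3.44 CPM (SD, n = 3). Its log2 fold change was 0.28 (adjusted p = 0.0553 in edgeR).

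Of the 4 endothelial transcription factors on the list, the 3 SOX genes were lower in the KO mean and Erg was not. Sox7 measured 126.5, 143 and 115.5 CPM in the WT mice and 113, 90.9 and 99.3 CPM in the KO mice (log2 fold change -0.35, adjusted p = 0.0938 by the Benjamini-Hochberg adjusted quasi-likelihood test of edgeR). Sox18 measured 119, 131 and 121 CPM in the WT mice and 116, 92.8 and 103 CPM in the KO mice (log2 fold change -0.25, adjusted p = 0.128 in edgeR; 0.0489 without KO4). In both genes the groups did not overlap, with KO4 close to the lowest WT mouse. Sox17, the third of these factors of vascular development, had -0.17 with overlapping groups (103.5 ± 9.92 and 92.1 ± 12.0 CPM; SD, n = 3), and Erg, an ETS factor that maintains endothelial identity, had 0.05 (113 ± 5.52 and 116 ± 12.4 CPM). None of the 4 passed the threshold.

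A separate list of 20 transcription factors of endothelium and neighbouring cells had 3 genes called lower and 1 called higher. Of all genes tested, 2.67% were called lower and 3.72% higher. In 6 of the 20 every KO mouse lay below every WT mouse and in 4 above, where 15.6% and 17.0% of all genes did so. Klf4, a shear-responsive factor, had the lowest adjusted p of the called genes. It measured 249 to 252 CPM in the WT mice and 139.8, 137 and 161 CPM in KO4, KO5 and KO6. The log2 difference was -0.78 (standard error 0.0705, adjusted p = 0.00665 by the Benjamini-Hochberg adjusted quasi-likelihood test of edgeR) and the call was lost only without WT5 (adjusted p = 0.0566). Tbx3 measured 207, 226 and 192 CPM in the WT mice and 109.6, 145 and 155 CPM in the KO mice (log2 fold change -0.61, adjusted p = 0.0423 in edgeR). Foxf1, needed for lung capillaries and also expressed in lung fibroblasts, fell as well (log2 fold change -0.44, adjusted p = 0.0318 in edgeR). It is named although 3 called genes with larger changes fill the quota of names. Lyl1, a factor of blood cells as well as endothelium, rose by 0.88 on the log2 scale (adjusted p = 0.0274 in edgeR). Mef2c, not called and named after its values were seen, was higher in every KO than in every WT mouse. Its means were 41.3 ± 2.69 and 71.3 ± 24.6 CPM (SD, n = 3), with a log2 fold change of 0.80 (adjusted p = 0.0742 in edgeR). The calls of Tbx3 and Foxf1 were each kept without KO4 and lost without any one of the other 5 mice, at adjusted p values of 0.052 to 0.159 and 0.0558 to 0.119 in edgeR, and that of Lyl1 was lost without WT4, WT5, WT6 or KO6 (0.0702 to 0.13). Klf4, Tbx3 and Foxf1 are also used by cells outside endothelium, so their values describe whole lung.

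BMP9 and BMP10 act through the receptor ALK1 (Acvrl1) with endoglin (Eng) as co-receptor, and SMAD1 and SMAD5 then induce Id genes and the inhibitors Smad6 and Smad7. Both list genes of this axis were lower in the KO mean and neither passed the test. Tmem100 (ENSMUSG00000069763, GRCm38 chromosome 11 from 90030348 to 90036508, plus strand) measured 606, 588 and 616 CPM in WT4, WT5 and WT6 and 564, 422.5 and 436 CPM in KO4, KO5 and KO6. Its groups did not overlap, and its log2 fold change was -0.35 (standard error 0.112, adjusted p = 0.11 by the Benjamini-Hochberg adjusted quasi-likelihood test of edgeR) with all mice and -0.49 (adjusted p = 0.0129) without KO4. Eng had a log2 fold change of -0.17, with 660.5 to 706.5 CPM in WT and 518 to 662 CPM in KO mice.

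Of the 12 other genes of this pathway that could be tested, 4 were called lower and 0 higher, where 2.67% of all genes were called lower. The list was chosen with earlier results of these data known, so no conclusion is drawn from this difference in shares. Id1 measured 80.0, 72.7 and 92.4 CPM in the WT mice and 58.2, 48.6 and 53.5 CPM in the KO mice (log2 fold change -0.62, standard error 0.103, adjusted p = 0.0246 by the Benjamini-Hochberg adjusted quasi-likelihood test of edgeR). Smad6 measured 304, 298 and 271 CPM in the WT mice and 225.5, 168 and 215 CPM in the KO mice (log2 fold change -0.52, adjusted p = 0.0431 in edgeR). Smad7 fell by 0.39 on the log2 scale (adjusted p = 0.0445 in edgeR). The remaining called gene was Id3, named here outside the quota of 3 names per list, which fell by 0.35 on the log2 scale (adjusted p = 0.0261 in edgeR). In all 4 genes each KO mouse lay below each WT mouse. The receptors Acvrl1 and Bmpr2, named after their values were seen, had log2 fold changes of -0.15 and 0.07 and did not pass. Id2 and the ligand gene Bmp6, named in the same way, did not pass either, and their groups overlapped. Id2 had a log2 fold change of -0.03, with means of 67.05 ± 3.43 and 66.02 ± 9.12 CPM (SD, n = 3). Bmp6 had 0.31 (adjusted p = 0.202 in edgeR). Not all Id genes fell, therefore. Each of the 4 calls was lost in at least 3 of the 6 fits that left out 1 mouse. Smad7 kept its call only without KO4, Id1 and Smad6 only without KO4 or KO5, and Id3 only without KO4, KO5 or WT4, and the adjusted p values after loss ranged from 0.0692 to 0.159 in edgeR. With upper-quartile factors Smad6 and Smad7 also missed the threshold, at 0.0504 and 0.0512. These 4 genes are expressed by many lung cell types, and the part of other cells in their change was not tested.

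**Figure D2:**
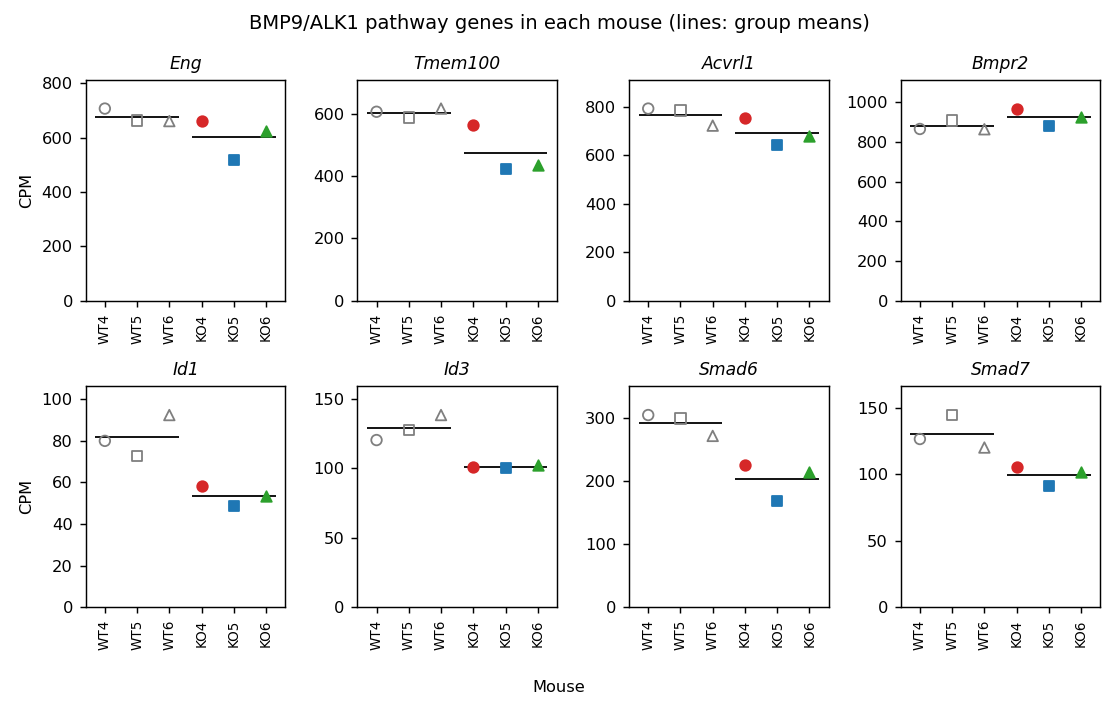
The 8 panels give the CPM (axis from 0) of BMP9/ALK1 pathway genes in each of the 6 mice, open symbols for WT and filled symbols for KO, with lines at the group means. Id1, Id3, Smad6 and Smad7 lie lower in every KO mouse than in any WT mouse, as does Tmem100, whereas Eng, Acvrl1 and Bmpr2 overlap.

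Of the 4 genes for vascular tone, caveolae and the capillary surface, Nos3 fell. Nos3 (ENSMUSG00000028978, GRCm38 chromosome 5 from 24364810 to 24384474, plus strand) encodes endothelial nitric oxide synthase, which relaxes the vessel wall. It measured 39.1, 43.5 and 40.5 CPM in WT4, WT5 and WT6 and 34.6, 27.1 and 29.2 CPM in KO4, KO5 and KO6, so that KO4 lay between the other KO mice and the WT mice. The log2 fold change was -0.44 (standard error 0.0978, adjusted p = 0.0457 by the Benjamini-Hochberg adjusted quasi-likelihood test of edgeR), from 41.0 ± 2.25 to 30.3 ± 3.86 CPM (SD, n = 3). Its adjusted p in edgeR was 0.0197 without KO4, and the call was lost without WT4 (0.101), WT5 (0.168), WT6 (0.129), KO5 (0.0664) or KO6 (0.117), and with upper-quartile factors (0.0534). Exons of Nos3 overlap those of Atg9b and Gm15587 on the opposite strand, and the strand setting of the counting is not given in the sources used here, although those genes measured below 2 CPM. Cav1, which holds nitric oxide synthase inactive in caveolae, had a log2 fold change of -0.15 with overlapping groups (1356 ± 32.9 and 1220 ± 135 CPM; SD, n = 3). Among 7 further genes of caveolae and nitric oxide signalling none was called.

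Peptide signalling to the vessel wall was represented by 5 genes, of which none passed. Ramp2, which turns Calcrl into the adrenomedullin receptor, measured 349, 375 and 374 CPM in the WT mice and 329, 287 and 305 CPM in the KO mice (log2 fold change -0.25, standard error 0.0664, adjusted p = 0.0677 by the Benjamini-Hochberg adjusted quasi-likelihood test of edgeR; 0.041 without KO4). Exons of Ramp2 overlap those of Vps25 on the same strand. Calcrl itself had a log2 fold change of -0.09, with 1460 to 1549 CPM in WT and 1296 to 1519 CPM in KO mice. Aplnr, the apelin receptor of general capillary cells, had 0.25 (adjusted p = 0.212 in edgeR). Its ligand gene Apln and the endothelin receptor gene Ednrb are described with the capillary genes. Of 8 tested ligands and receptors of the adrenomedullin, apelin and endothelin systems outside the list, 0 were called, with a median log2 fold change of -0.23 and all 8 below 0. Of all genes tested, 49.4% lay below 0.

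Both secreted products stayed below the threshold and differed in direction. Egfl7, a matrix-bound regulator of vessel formation, had a log2 fold change of -0.29 (adjusted p = 0.125 by the Benjamini-Hochberg adjusted quasi-likelihood test of edgeR; 0.0305 without KO4), from 393 ± 23.3 to 323 ± 41.0 CPM (SD, n = 3). Exons of Egfl7 overlap those of Agpat2 on the opposite strand. Vwf, the von Willebrand factor that binds platelets, measured 734, 700.2 and 625 CPM in WT4, WT5 and WT6 and 1053, 674 and 764 CPM in KO4, KO5 and KO6 (log2 fold change 0.27, adjusted p = 0.333 in edgeR). The value of KO4 was 138% of the highest other mouse, and without KO4 the log2 fold change was 0.06.

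Within the capillary genes, KO4 differed from the other mice. Ednrb (ENSMUSG00000022122, GRCm38 chromosome 14 from 103814625 to 103844402, minus strand), a marker of aerocytes, measured 132, 134 and 106 CPM in WT4, WT5 and WT6 and 29.2, 121 and 129 CPM in KO4, KO5 and KO6. Its value in KO4 rested on 597 counts and was 27.5% of that in the next lowest mouse. A log2 difference of -0.41 (standard error 0.469, adjusted p = 0.631 by the Benjamini-Hochberg adjusted quasi-likelihood test of edgeR) became 0.01 without KO4. Apln (ENSMUSG00000037010, GRCm38 chromosome X from 48025146 to 48034853, minus strand), which encodes apelin and is restricted to aerocytes among lung capillary cells, measured 44.0, 42.4 and 42.3 CPM in the WT mice and 14.2, 37.6 and 38.4 CPM in KO4, KO5 and KO6. All KO mice lay below all WT mice, and KO4 rested on 290 counts and had 37.7% of the next lowest value. The log2 fold change of Apln was -0.51 (standard error 0.325, adjusted p = 0.376 by the Benjamini-Hochberg adjusted quasi-likelihood test of edgeR), and -0.18 (adjusted p = 0.11) without KO4. The promoters of both genes are shown because these 2 moved together in 1 mouse (RefSeq, GRCm38.p6, 5′ to 3′ on the minus strand, chr14:103843652-103843951 for Ednrb and chrX:48034804-48035103 for Apln). Capitals mark CACCC or GGGTG in Ednrb (3 matches) and CTTCCT, the reverse complement of AGGAAG, in Apln (1 match). Neither window has AACAAT on either strand, and of the 3 motifs searched they share none. The Ednrb window lies inside the gene interval given above, downstream of its outermost start. Its matches therefore do not describe the sequence before that outermost start.
Ednrb: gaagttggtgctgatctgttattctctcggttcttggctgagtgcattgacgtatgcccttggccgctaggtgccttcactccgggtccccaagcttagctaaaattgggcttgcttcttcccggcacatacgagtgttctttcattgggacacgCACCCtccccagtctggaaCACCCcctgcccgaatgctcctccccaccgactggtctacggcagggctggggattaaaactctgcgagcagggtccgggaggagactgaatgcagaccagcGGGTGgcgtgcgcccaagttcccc
Apln: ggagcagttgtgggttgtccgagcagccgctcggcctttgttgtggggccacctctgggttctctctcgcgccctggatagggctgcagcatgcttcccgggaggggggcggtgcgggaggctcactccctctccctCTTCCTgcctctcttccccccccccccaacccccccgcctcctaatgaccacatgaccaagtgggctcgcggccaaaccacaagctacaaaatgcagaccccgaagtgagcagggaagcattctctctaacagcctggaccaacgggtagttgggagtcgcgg

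Several other aerocyte genes were low in KO4, and some genes of the same capillary list were highest there. To describe this, genes were counted whose value in 1 mouse was under 50% of the lowest of the other mice, with all of those above 5 CPM, a limit set after the values were seen. KO4 had 11 such genes among 17037. These included 2 of the 36 endothelial genes, Ednrb and Apln, and 2 of the 9 other capillary genes, Fibin and Chst1, both markers of aerocytes. WT4 and KO5 had 14 and 11 such genes and WT5, WT6 and KO6 had 0, with none of the 36 among them. In the other direction, KO5 had 146 genes above 2 times the highest other mouse, where the other mice had 1 to 30, so that by this count KO5 and not KO4 lay furthest apart, and none of the 36 was among these in any mouse. Fibin measured 75.2, 72.5 and 68.6 CPM in the WT mice and 17.45, 59.9 and 52.3 CPM in KO4, KO5 and KO6. Chst1 measured 28.6, 31.7 and 22.2 CPM in the WT mice and 10.5, 28.8 and 28.5 CPM in KO4, KO5 and KO6. Car4, a carbonic anhydrase on the luminal face of aerocytes that alveolar macrophages also express, measured 168, 168 and 148 CPM in the WT mice and 110.5, 151 and 167.5 CPM in the KO mice, so that KO4 reached 74.5% of the next lowest mouse (log2 fold change -0.17, adjusted p = 0.502 in edgeR). Kdr, which is higher in aerocytes than in general capillary cells, reached 79.4% of the next lowest mouse in KO4, Kitl 77% and Tbx2 86.5%, and these 3 genes are named after their values were seen. Hpgd, which breaks down prostaglandins and stands on the same capillary list, went the other way, with 630.4, 689.9 and 724 CPM in the WT mice and 990.3, 622 and 731.5 CPM in KO4, KO5 and KO6, and KO4 at 135% of the highest other mouse. Cxcl12 and Cd36 of that list were also highest in KO4, at 397 and 1468 CPM.

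Some genes of general capillary and venous endothelium were highest in the same mouse, and others were not. Plvap, a protein of endothelial diaphragms, measured 431.5, 396 and 392 CPM in the WT mice and 552, 343 and 399 CPM in KO4, KO5 and KO6, with a log2 fold change of 0.08 over all mice and -0.13 without KO4. KO4 was also the highest mouse for Aplnr, with 36.0, 29.9 and 30.8 CPM in the WT mice and 44.3, 36.1 and 35.1 CPM in KO4, KO5 and KO6. Kit and Gpihbp1, which general capillary cells also express and which are named after their values were seen, lay within the range of the other mice in KO4. Tek reached 119% of the highest other mouse in KO4 and Ptprb 113%. Pecam1, Cdh5 and Cav1 in KO4 lay within the range of the other 5 mice, at 96.1%, 97.8% and 98.7% of the highest of these. With 1 mouse there is no replicate of this pattern and no test was made of it, and sex, litter and the piece of lung sampled are not given for it.

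**Figure D3:**
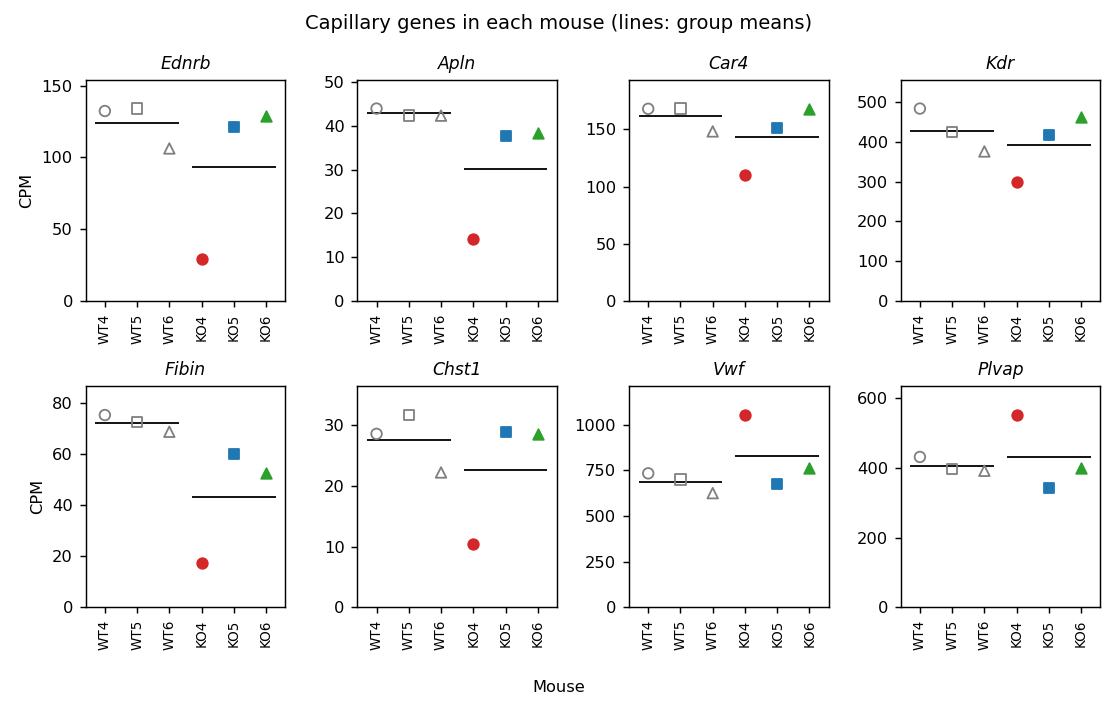
The 8 panels give the CPM (axis from 0) of capillary genes and of Kdr and Vwf in each of the 6 mice, open symbols for WT and filled symbols for KO, with lines at the group means. Kdr and Vwf are listed among the genes of the whole vascular tree. KO4 is the lowest point for Ednrb, Apln, Car4, Kdr, Fibin and Chst1 and the highest for Vwf and Plvap, while KO5 and KO6 lie near the WT mice in most panels.

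Arterial genes did not separate by genotype. The connexin genes Gja4 and Gja5 had log2 fold changes of -0.03 and -0.10, and Efnb2, the arterial ephrin, had -0.12. Gja4 measured 51.2 ± 1.27 and 50.2 ± 8.37 CPM in WT and KO mice, Gja5 32.4 ± 5.57 and 30.1 ± 0.809 CPM, and Efnb2 203 ± 10.5 and 187 ± 24.4 CPM (SD, n = 3). All 3 overlapped between groups, with adjusted p values of 0.507 to 0.897 by the Benjamini-Hochberg adjusted quasi-likelihood test of edgeR. Of 5 Notch and ephrin genes that act with them, Jag1, a Notch ligand, was called lower, with 81.8, 87.5 and 77.5 CPM in the WT mice and 63.1, 53.9 and 62.2 CPM in the KO mice. Its log2 fold change was -0.46 (adjusted p = 0.0246 in edgeR), and the call was kept without KO4 or KO5 and lost without WT4, WT5, WT6 or KO6 (adjusted p 0.067 to 0.115).

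Lyve1 had the largest fold change of the 36 genes. Lyve1 (ENSMUSG00000030787, GRCm38 chromosome 7 from 110850607 to 110863239, minus strand) encodes a hyaluronan receptor of lymphatic endothelium, which a class of interstitial macrophages and some blood vessels also carry. It measured 275, 387 and 384 CPM in WT4, WT5 and WT6 and 265, 182 and 162 CPM in KO4, KO5 and KO6, so that the groups did not overlap but WT4 lay close to KO4. The log2 fold change was -0.78 (standard error 0.207, adjusted p = 0.0698 by the Benjamini-Hochberg adjusted quasi-likelihood test of edgeR), and it was -1.02 (adjusted p = 0.0272) without KO4. The other lymphatic genes lay the other way, with log2 fold changes of 0.28 for Prox1, which sets lymphatic identity, and 0.08 for Flt4, the VEGF-C receptor, both with overlapping groups. Prox1 measured 5.70 ± 1.88 CPM in WT and 6.94 ± 1.51 CPM in KO mice (SD, n = 3), a difference within the spread between mice. Flt4 ranged from 55.5 to 68.3 CPM in WT and from 60.5 to 75.2 CPM in KO mice. Of 4 further lymphatic genes that could be tested none was called, and all 4 had fold changes above 0, where 49.4% of all genes lay below 0. Of these 4, Pdpn is also on the list of type 1 alveolar markers, and its log2 fold change was 0.0 without KO4. Thy1 had the largest change of the 4 (0.43) and its highest value, 36.65 CPM, in KO5, the mouse with the highest leukocyte sum. The part of other cell types in these values was not tested.

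The 36 genes were also expressed as a percentage of the summed CPM of the 23 genes of the whole vascular tree, each of those left out of its own sum. By this measure the KO mice lay below the WT mice in 10 of the 36 genes, where 5.65% of all genes tested did so, and above in 5, where 18.7% did so. These shares are not a like background, because the sum is built from 23 of the 36 genes themselves. The sum was also lowest in KO5 and KO6, which raises the percentages of genes outside it in those mice. No conclusion is drawn from the difference in shares. Nos3 amounted to 0.364% ± 0.025 of the sum in WT and 0.283% ± 0.0111 in KO mice (SD, n = 3), Cldn5 to 3.37% ± 0.0382 and 2.87% ± 0.248, and Tmem100 to 5.33% ± 0.253 and 4.40% ± 0.345. Lyve1 amounted to 3.09% ± 0.636 and 1.88% ± 0.357. On the other side stood Vwf, with 6.44% ± 0.345 and 8.32% ± 1.34, together with Tek, Ptprb, Aplnr and Flt4. In all 5 of these genes KO4 had the highest percentage. For Tek, KO5 and KO6 (3.98% and 4.02%) lay close to WT4 (3.96%). For Flt4 they (0.609% and 0.613%) lay close to WT5 (0.602%).

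**Figure D4:**
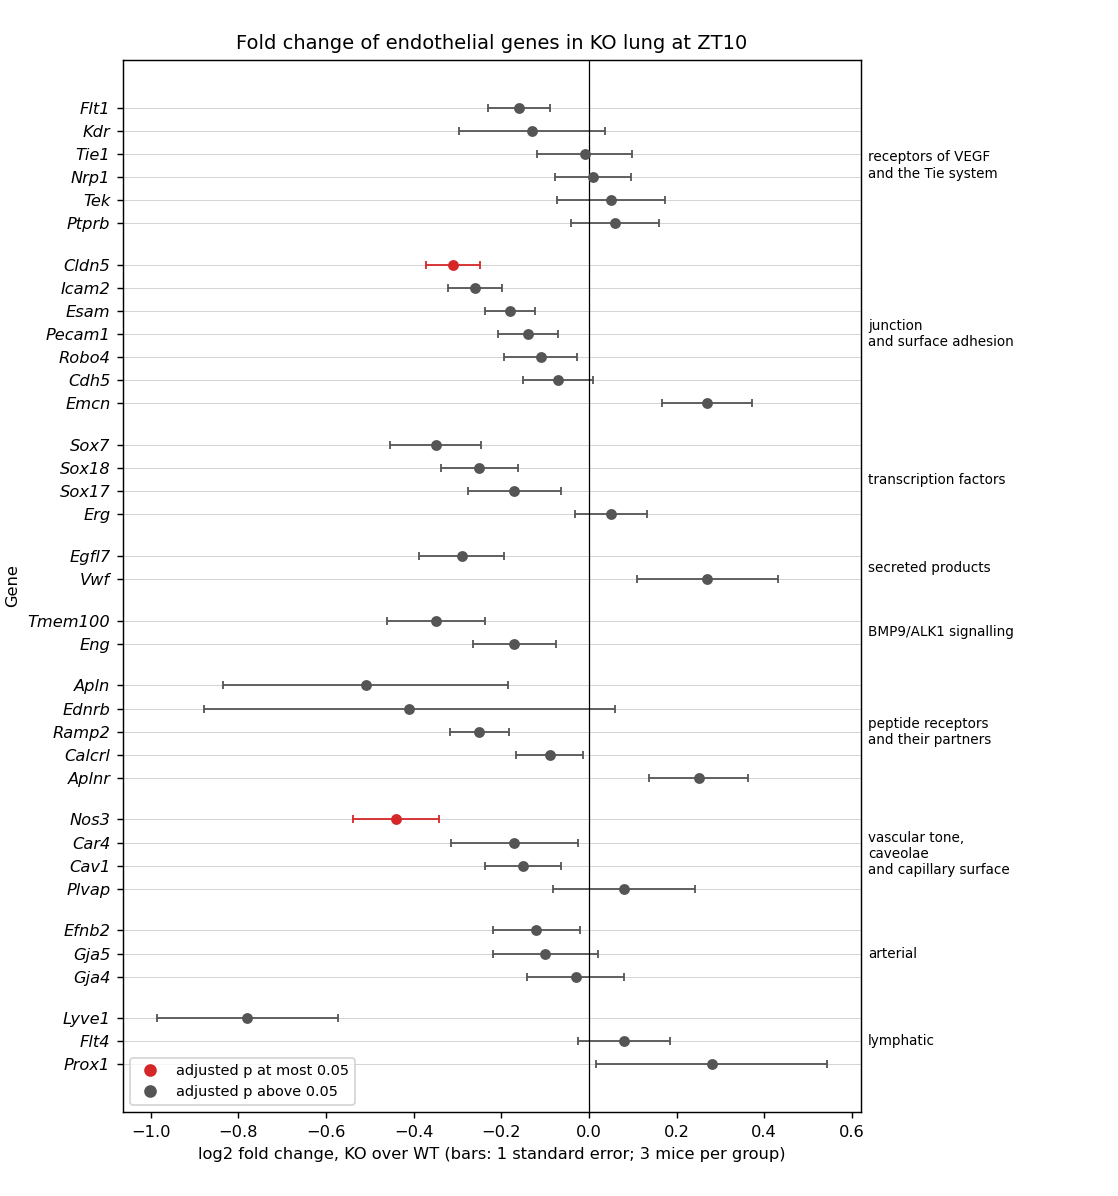
Points are the log2 fold changes (KO over WT, 3 mice per group) of the 36 endothelial genes by role, with bars of 1 standard error, and red marks an adjusted p of at most 0.05 over all genes tested. Only Cldn5 and Nos3 are red, 26 of the 36 points lie left of 0, and the widest bars belong to Ednrb and Apln.

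Over all 11 lists of partner genes, 102 rows were in the table, 96 could be tested and 10 were called (10.4%, against 6.39% of all genes), 8 lower and 2 higher. These lists were chosen with earlier results of these data known, so the 2 shares are not a like comparison. The second gene called higher was Ackr1, a chemokine-binding receptor of venules, which was near the limit of detection with 0.443, 0.431 and 0.485 CPM in the WT mice and 0.88, 1.32 and 1.23 CPM in the KO mice. Its log2 fold change was 1.34 (standard error 0.25, adjusted p = 0.0303 by the Benjamini-Hochberg adjusted quasi-likelihood test of edgeR), its call was kept without KO4 and lost without any one of the other 5 mice (adjusted p 0.0704 to 0.134) or by DESeq2 (0.0548), and its exons overlap those of Cadm3 on the same strand, which itself measured 3.20 CPM in WT and 7.05 CPM in KO mice. The list of 17 anticoagulant, lipid-handling and surface genes, with a median log2 fold change of -0.01, held no called gene, nor did the 9 capillary genes, with a median of -0.06. Of the 17, Thbd and Ly6c1, named after their values were seen, were lower in every KO than in every WT mouse. Both had a log2 fold change of -0.33. Their adjusted p values were 0.0566 and 0.0794 in edgeR and 0.000741 and 0.00933 by DESeq2. In 2 other genes of the 17, Clec14a and Bmx, every KO mouse lay above every WT mouse. Their log2 fold changes were 0.27 and 0.25. The adjusted p values were 0.148 and 0.211 in edgeR, and 0.0609 and 0.299 by DESeq2. Over all genes tested the KO values lay below in this way in 15.6% and above in 17.0%. The median over the partner genes tested was -0.07.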

How the data were processed

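Bulk mRNA libraries (TruSeq stranded kit) of 6 mouse lungs at ZT10, 3 WT and 3 KO, were compared. Per the labels, the authors used Trimmomatic 0.36, STAR 2.5.3a, Picard 2.9.0 and HTSeq 0.6.0 with GRCm38. They deposited whole read counts per gene without normalization, and the annotation release and strand setting are not given in the sources used here. Differences were tested with edgeR 4.0.16 in R 4.3.3 (TMM scaling, filterByExpr with minimum count 10 and minimum total 15, glmQLFit and glmQLFTest, no covariates), with Benjamini-Hochberg adjustment over the 17037 genes kept. A gene was called at an adjusted p of at most 0.05. The standard error is the log2 fold change divided by the square root of F. CPM used TMM-scaled totals, and exon lengths and positions came from GENCODE mouse release 21. Two-sided exact permutation tests of 3 against 3 mice give no p below 0.1, so no separate p is printed for single genes. Mice are separate animals, and SD is between the 3 mice of a group.

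The 36 genes, their roles, and the partner and marker lists were chosen with earlier results of these data known. Every one of the 36 is named, and partner genes are named if called, up to 3 per list by size of change, with exceptions stated. Alternatives were DESeq2 size factors, upper-quartile factors, no filter on counts, a minimum of 10 counts in each library, DESeq2 1.42.0, edgeR's exact test, the replicate number as a block, and each mouse left out. The fits were tested on simulated data. Tables and figures used Python 3.11.15, pandas 2.3.3 and Matplotlib 3.10.9.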

Additional observations from a re-analysis of the deposited data

How the results depend on the processing

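Genes called numbered 1089, against 1913 by DESeq2 1.42.0, 66 with the replicate number as a block, and 1 (without WT5) to 1278 (without KO4) with 1 mouse left out. Of the 36 endothelial genes 2 were called, against 1 with upper-quartile factors, 4 with no filter, 9 by DESeq2, 4 by edgeR's exact test, 0 with the replicate block and 0 to 6 (without KO4) with 1 mouse left out, all lower. Of the partner genes 10 were called, against 17 by DESeq2, 16 by the exact test, 1 with the block and 0 (without WT5) to 19 (without KO4). The median log2 fold change of the 36 genes, -0.14, stayed between -0.18 and -0.11. With upper-quartile factors the adjusted p of Nos3, Smad6 and Smad7 was 0.0534, 0.0504 and 0.0512, and by DESeq2 that of Ackr1 was 0.0548.

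Same-numbered mice did not deviate together (correlations -0.03, -0.15 and -0.02) and no mouse correlated best with its own number. A pairing by number was thus not seen, but with 3 mice per group these correlations cannot exclude one. The loss of calls under the block is given only as a count.

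Among the 36 genes and the 10 partner genes called, signs changed only with 1 mouse left out. Over those fits the log2 fold change ran from -0.14 to 0.05 for Tie1, from -0.18 to 0.05 for Gja4, from -0.22 to 0.03 for Gja5, from -0.05 to 0.07 for Nrp1 and from -0.01 to 0.15 for Flt4. The lowest and the highest value, the sign turning without KO4, were -0.26 and 0.03 for Kdr, -0.11 and 0.14 for Tek, -0.04 and 0.11 for Erg, -0.71 and 0.01 for Ednrb, -0.05 and 0.11 for Ptprb, and -0.13 and 0.22 for Plvap. The cause was not tested. With 3 mice per group small fold changes could not be told from 0 for genes that vary between mice, and a p above the threshold does not show that a gene was unchanged.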

Other observations

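Beside Ednrb, Apln, Fibin and Chst1, the other 7 genes that lay in KO4 under 50% of the lowest other mouse were Grip2, Dpysl5, Tmeff2, Pcdhac2, Xpnpep2, Slc5a12 and Edil3. They were chosen after their values were seen. Grip2 measured 0.88 CPM in KO4 and 6.17 to 10.1 CPM in the other 5 mice. Dpysl5 measured 2.44 CPM in KO4 and 13.2 to 16.2 CPM in the others. Xpnpep2, an aminopeptidase of the cell surface, measured 6.45 CPM in KO4 and 20.7 to 25.6 CPM in the others, and Edil3, a secreted matrix protein first described in endothelium, 8.26 CPM and 18.5 to 24.2 CPM. No test was made of these values.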
